A study of Homo sapiens with 12 samples.

Results

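The nuclear factor kappa B (NF-kB) system was examined through 10 genes, NFKB1, NFKB2, REL, RELA, RELB, NFKBIA, NFKBIE, BCL3, TNFAIP3 and MAP3K14, of the 18404 genes that have a row with a single gene symbol on the arrays. The members were selected by name as subunits, inhibitors and regulators, and each of the 10 had exactly 1 row, which was used. The study took 2 established cell lines of Hodgkin lymphoma, U-HO1 and L-1236, grown in different media (IMDM for U-HO1, RPMI for L-1236). The cells received a short hairpin RNA against the transcription factor GATA-3 (labelled siGATA-3, called knockdown here) or a control hairpin without function (labelled siSCR, called control), and all 4 groups were cultured for 3 days and sorted for GFP. RNA from 25000 sorted cells per sample was amplified and hybridised, which gave 3 arrays for each of the groups U-HO1 knockdown, U-HO1 control, L-1236 knockdown and L-1236 control. All values are on the scale of the deposited table, taken as log2 from its range, so that a difference of 1 is a 2-fold difference. The submitters call the samples independent but do not say whether they came from separate transductions, so each p-value reflects only how far these arrays scatter, which may be technical. Precision is limited by having 3 arrays a group.

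NF-kB transcription factors are dimers of the 5 subunits encoded by NFKB1, NFKB2, REL, RELA and RELB. In resting cells they are held in the cytoplasm by inhibitor of kappa B (IkB) proteins such as those encoded by NFKBIA and NFKBIE, and the canonical pathway frees them when IkB kinase marks these inhibitors for degradation. In the non-canonical pathway the kinase NIK, encoded by MAP3K14, triggers processing of the NFKB2 product into a subunit that pairs with RELB. TNFAIP3 encodes a ubiquitin-editing enzyme that shuts the canonical pathway off, and BCL3 encodes an atypical IkB protein that acts in the nucleus. Constant NF-kB activity is a known trait of Hodgkin and Reed-Sternberg cells, the tumour cells of Hodgkin lymphoma, and inactivating lesions of inhibitor genes of this set are known in that disease.

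NFKBIA and TNFAIP3 are known targets of NF-kB, and their start-site windows are shown for that reason, with a window each of NFKB1 and MAP3K14. The windows run from 250 bases before to 50 bases after an annotated start and come from RefSeq on GRCh38.p14, an assembly used only for sequences and names, since no build is named for the arrays. Capitals mark matches of the kappa-B decamer consensus on either strand, overlapping matches included.
TNFAIP3, chr6:137867009-137867308, plus strand: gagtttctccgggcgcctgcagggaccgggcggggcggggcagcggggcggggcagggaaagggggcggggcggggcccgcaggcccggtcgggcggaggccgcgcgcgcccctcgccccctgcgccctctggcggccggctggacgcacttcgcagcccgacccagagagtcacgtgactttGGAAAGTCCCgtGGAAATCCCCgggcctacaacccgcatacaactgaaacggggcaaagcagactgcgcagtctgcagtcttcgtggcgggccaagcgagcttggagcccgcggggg
NFKBIA, chr14:35404700-35404999, minus strand: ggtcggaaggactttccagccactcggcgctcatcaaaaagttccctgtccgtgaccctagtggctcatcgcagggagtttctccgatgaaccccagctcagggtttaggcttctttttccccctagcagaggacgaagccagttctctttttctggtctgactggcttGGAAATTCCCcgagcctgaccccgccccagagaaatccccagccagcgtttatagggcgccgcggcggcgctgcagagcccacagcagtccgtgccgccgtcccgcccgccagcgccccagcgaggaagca
NFKB1, chr4:102501109-102501408, plus strand: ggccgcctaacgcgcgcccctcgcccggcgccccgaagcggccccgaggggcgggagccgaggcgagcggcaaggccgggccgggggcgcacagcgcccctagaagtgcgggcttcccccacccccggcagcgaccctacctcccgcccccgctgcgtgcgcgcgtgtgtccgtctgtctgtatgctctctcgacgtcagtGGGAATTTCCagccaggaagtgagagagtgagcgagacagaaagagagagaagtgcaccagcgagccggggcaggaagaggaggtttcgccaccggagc
MAP3K14, chr17:45316971-45317270, minus strand: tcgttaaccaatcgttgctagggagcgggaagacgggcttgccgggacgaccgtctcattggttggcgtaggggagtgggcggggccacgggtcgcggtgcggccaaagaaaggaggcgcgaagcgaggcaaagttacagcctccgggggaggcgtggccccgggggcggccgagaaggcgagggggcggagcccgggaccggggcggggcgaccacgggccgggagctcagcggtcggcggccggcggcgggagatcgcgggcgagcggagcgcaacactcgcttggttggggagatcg
The TNFAIP3 window held 2 matches, at 67 to 58 and 55 to 46 bases before the start, and the windows of NFKBIA and NFKB1 held 1 each. A second annotated NFKB1 window, chr4:102501684-102501983, not printed here, held 0. The MAP3K14 window held no match, which says only that these letters are not in it. The table of windows covered 8 of the 10 members with 12 windows, and 7 of these windows, from 6 members, held at least 1 match. RELB and NFKBIE had no window. Of the members not printed, REL, NFKB2 and BCL3 had a window with a match and RELA had none. The same consensus was found in 11.27% of all 35116 windows. A match is a description of the letters and was not measured as a binding site in these cells.

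The arrays of each line correlated with each other at 0.986 to 0.995 across rows, and arrays of different lines at 0.939 to 0.951. TNFRSF8, which encodes the Hodgkin marker CD30, read 9.36 to 10.50 over the 12 arrays, and IRF4 read 11.04 to 11.55. Over all 8 listed Hodgkin markers the mean was 9.03 to 9.27 in U-HO1 and 8.88 to 9.07 in L-1236. On control arrays 4 of these 8 were higher and 2 lower in U-HO1 (limma, adjusted p under 0.05), where 13.3% of all rows were higher and 12.5% lower. CCL22 read 6.75 to 7.39 in U-HO1 and 8.31 to 9.69 in L-1236, and CD40 7.59 to 7.83 and 9.32 to 9.93. TRAF1 read 9.85 to 10.46 in U-HO1 and 6.75 to 7.23 in L-1236. The mean of 7 measured B-cell genes was 6.69 to 6.75 on U-HO1 arrays and 7.33 to 7.46 on L-1236 arrays, with MS4A1 at 5.63 to 5.94 over all arrays. In that list CD22 read 6.18 to 6.49 in U-HO1 and 8.40 to 9.27 in L-1236, and FCER2 read 8.07 to 8.67 in U-HO1 and 10.43 to 10.997 in L-1236. The mean of 8 T-cell genes was 6.20 to 6.37 in U-HO1 and 6.43 to 6.52 in L-1236, with CD3E at 5.88 to 6.32 over all arrays and CD4 at 6.63 to 6.89 in U-HO1 and 7.99 to 8.95 in L-1236. The mean of 6 myeloid genes was 6.28 to 6.49 in U-HO1 and 6.33 to 6.48 in L-1236. No background level is given on these arrays, and the part of these markers in the line differences was not tested. GATA3, the target of the hairpin, read 11.07, 10.12 and 10.22 on the U-HO1 arrays labelled knockdown 1, 2 and 3 and 11.24, 10.90 and 10.24 on those labelled control, and 10.80, 10.00 and 10.24 against 10.29, 10.69 and 9.95 in L-1236. The labels therefore do not separate low from high GATA3, and arrays are called by their labels only.

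The members differed mainly between the lines. TNFAIP3 was 4.63-fold higher and MAP3K14 2.66-fold higher in U-HO1, relative to L-1236, on arrays labelled control, and RELB was 1.25-fold higher. NFKBIE was 1.86-fold lower and NFKB1 1.47-fold lower in U-HO1. These 5 genes passed in the same direction on the arrays labelled knockdown as well (limma, adjusted p under 0.05 over all 32321 rows). Between the hairpins no member passed in either line. The lines also differed in culture medium, and line and medium cannot be told apart.

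**Figure D1:**
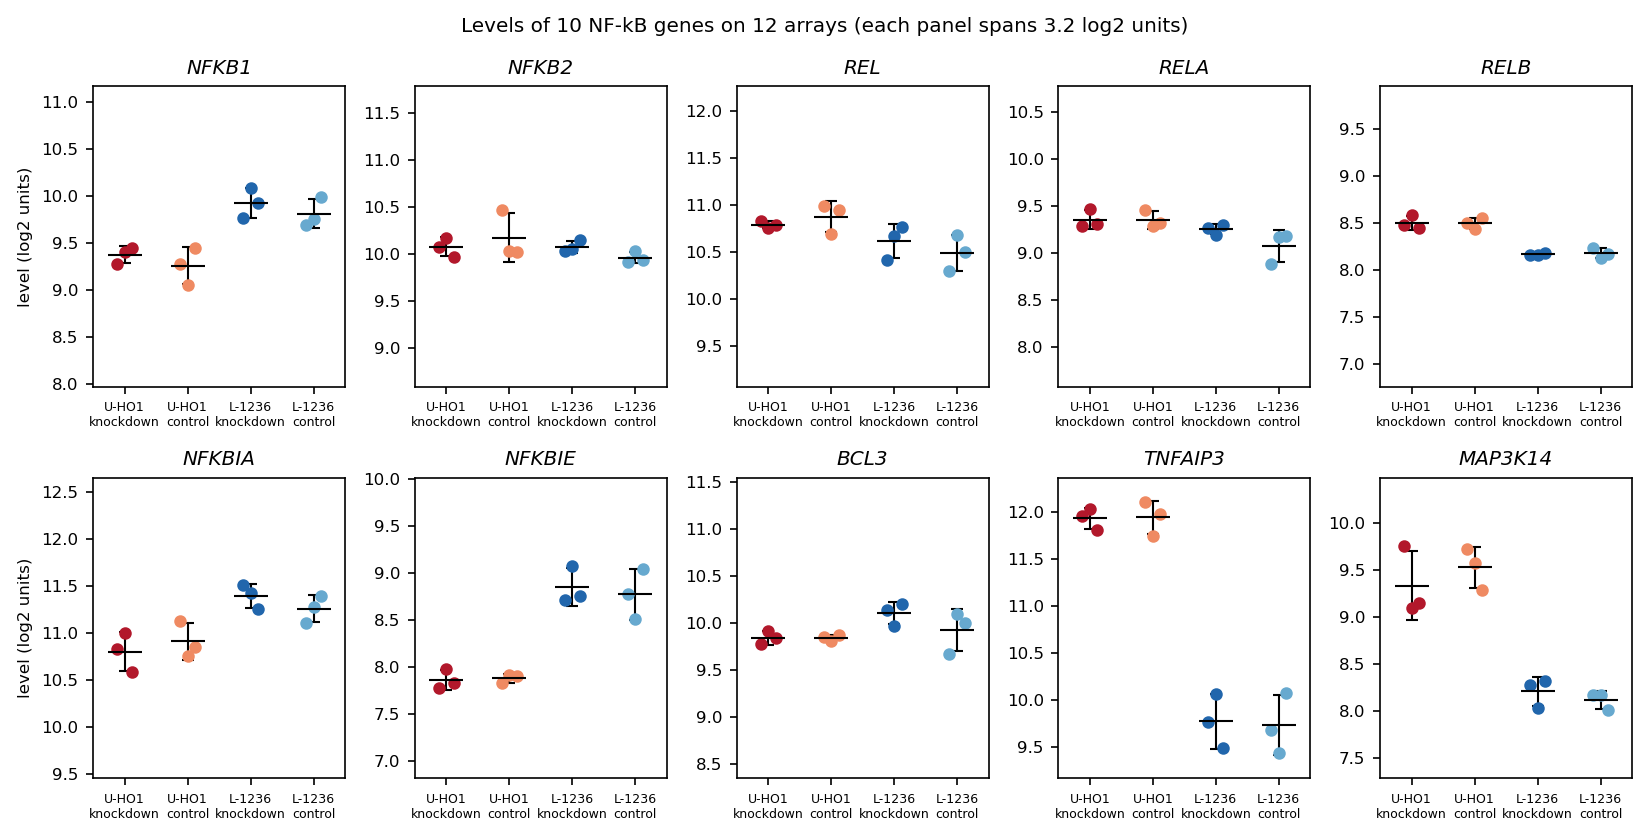
Level (log2 units) of each of the 10 genes on the 12 arrays, by group from left to right U-HO1 labelled knockdown, U-HO1 labelled control, L-1236 labelled knockdown and L-1236 labelled control. Points are arrays in replicate order, and the horizontal bar with whiskers is the mean ± SD (n = 3). TNFAIP3 and MAP3K14 lie higher and NFKBIE and NFKB1 lower on all U-HO1 arrays than on any L-1236 array.

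On arrays labelled control, 7 of the 10 members passed between U-HO1 and L-1236, 5 higher and 2 lower in U-HO1 (limma, adjusted p under 0.05), where 25.8% of all rows passed, 13.3% higher and 12.5% lower. On arrays labelled knockdown 6 passed, 3 higher and 3 lower, where 24.7% of all rows passed, 12.2% higher and 12.5% lower. The shares over all rows also count dim rows and rows without a symbol. Leaving out the 50% of rows with the lowest means kept all 10 members. Then 7 members and 6771 rows passed on control arrays, and 6 members and 6564 rows on knockdown arrays. The share passing among these brighter rows was thus above that over all rows. In 7 members the U-HO1 and L-1236 control arrays did not overlap, where 34.7% of all rows were so parted, and on knockdown arrays there were also 7, where 39.8% of all rows were. Those passing in both comparisons were TNFAIP3, MAP3K14, RELB, NFKBIE and NFKB1. After quantile normalization the split was 3 higher and 3 lower on control arrays, where 4271 of all rows were higher and 4475 lower. On knockdown arrays it was then 3 higher and 4 lower, where 4004 of all rows were higher and 4383 lower. The median difference of the 10 members was 0.24 on control arrays and 0.05 on knockdown arrays, beside medians over all rows of 0.0006 and 0.03. These are bulk arrays, so fewer cells expressing a gene and less RNA per cell cannot be told apart.

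Among the subunits, NFKB1, which encodes a subunit precursor, read 9.27, 9.40 and 9.45 on the U-HO1 arrays labelled knockdown and 9.28, 9.05 and 9.44 on those labelled control, against 9.76, 10.09 and 9.93 on the L-1236 arrays labelled knockdown and 9.69, 9.76 and 9.99 on those labelled control. All 6 U-HO1 arrays were below all 6 L-1236 arrays. The log2 difference between the lines was -0.56 (SE 0.12, n = 3 each, limma adjusted p = 0.00386) on control arrays and -0.55 (SE 0.12, adjusted p = 0.00412) on knockdown arrays. RELB, the partner of the processed NFKB2 product, differed the opposite way. It read 8.48, 8.59 and 8.44 on U-HO1 knockdown and 8.49, 8.43 and 8.55 on U-HO1 control arrays, against 8.16, 8.16 and 8.18 on L-1236 knockdown and 8.23, 8.13 and 8.17 on L-1236 control arrays. Its lines did not overlap either, and the gap was small beside a tight spread. The log2 difference was 0.32 (SE 0.07, adjusted p = 0.00322) on control and 0.34 (SE 0.07, adjusted p = 0.00231) on knockdown arrays. Without the arrays labelled knockdown 1 and control 3 of each line, whose GATA3 levels go against their labels, RELB had an adjusted p of 0.0784 on the control arrays.

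REL encodes the c-Rel subunit, whose locus is known to be gained in many Hodgkin tumours. It read 10.83, 10.75 and 10.79 on U-HO1 knockdown and 10.99, 10.69 and 10.95 on U-HO1 control arrays, against 10.41, 10.67 and 10.76 on L-1236 knockdown and 10.29, 10.68 and 10.51 on L-1236 control arrays. The lines overlapped over all labels. On control arrays the U-HO1 values were all higher, with a log2 difference of 0.38 (SE 0.12, adjusted p = 0.0321), while on knockdown arrays the difference was 0.18 (SE 0.12, adjusted p = 0.3495). The REL call on control arrays was lost without L-1236 control 1 or 3 or U-HO1 control 1 or 3, with adjusted p from 0.0140 to 0.132 over the control arrays left out singly. RELA, which encodes the main activating subunit of the canonical dimer, read 9.29, 9.47 and 9.31 on U-HO1 knockdown and 9.46, 9.28 and 9.32 on U-HO1 control arrays, against 9.27, 9.19 and 9.29 on L-1236 knockdown and 8.88, 9.17 and 9.18 on L-1236 control arrays. The lowest reading, 8.88, belonged to L-1236 control 1. The log2 difference was 0.27 (SE 0.09, adjusted p = 0.0476) on control arrays and 0.11 (SE 0.09, adjusted p = 0.505) on knockdown arrays. Without L-1236 control 1 that difference was 0.18 with an adjusted p of 0.186, and its call was also lost without U-HO1 control 1, 2 or 3. NFKB2 did not pass in either comparison. Its levels were 10.08, 10.17 and 9.97 on U-HO1 knockdown and 10.47, 10.03 and 10.02 on U-HO1 control arrays, against 10.03, 10.05 and 10.15 on L-1236 knockdown and 9.92, 10.03 and 9.93 on L-1236 control arrays. U-HO1 control 1 was the highest of the 12. The log2 difference of NFKB2 was 0.21 on control arrays (95% interval -0.03 to 0.46) and -0.0002 on knockdown arrays (95% interval -0.24 to 0.24).

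Among the inhibitors, NFKBIE, which encodes IkB epsilon, read 7.78, 7.98 and 7.83 on U-HO1 knockdown and 7.83, 7.91 and 7.91 on U-HO1 control arrays, against 8.72, 9.08 and 8.76 on L-1236 knockdown and 8.78, 8.51 and 9.05 on L-1236 control arrays. Every U-HO1 array lay below every L-1236 array, and the L-1236 arrays were spread more widely (SD over 6 arrays 0.22, against 0.07 in U-HO1). The log2 difference was -0.89 (SE 0.13, adjusted p = 0.000277) on control and -0.99 (SE 0.13, adjusted p = 0.000127) on knockdown arrays. NFKBIA, which encodes IkB alpha, read 10.83, 10.998 and 10.59 on U-HO1 knockdown and 11.13, 10.76 and 10.85 on U-HO1 control arrays, against 11.51, 11.42 and 11.25 on L-1236 knockdown and 11.11, 11.28 and 11.40 on L-1236 control arrays. The lines overlapped through U-HO1 control 1 and L-1236 control 1. NFKBIA was lower in U-HO1 by -0.59 (SE 0.13, adjusted p = 0.00449) on knockdown arrays and differed by -0.35 (SE 0.13, adjusted p = 0.0682) on control arrays. Without U-HO1 control 1 the difference on control arrays was -0.46 with an adjusted p of 0.0266, and without the arrays whose GATA3 went against the label the difference on knockdown arrays was -0.55 with an adjusted p of 0.0650. BCL3 read 9.77, 9.92 and 9.84 on U-HO1 knockdown and 9.85, 9.81 and 9.87 on U-HO1 control arrays, against 10.135, 9.97 and 10.20 on L-1236 knockdown and 9.67, 10.09 and 10.00 on L-1236 control arrays. The U-HO1 values were close together and the L-1236 control values lay on either side of them. BCL3 differed by -0.26 (SE 0.10, adjusted p = 0.0952) on knockdown and -0.08 (SE 0.10, adjusted p = 0.670) on control arrays, and on knockdown arrays it had an adjusted p of 0.0349 after quantile normalization.

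TNFAIP3 had the largest difference of the set. It read 11.96, 12.03 and 11.81 on U-HO1 knockdown and 12.10, 11.75 and 11.98 on U-HO1 control arrays, against 9.76, 10.07 and 9.48 on L-1236 knockdown and 9.68, 9.44 and 10.07 on L-1236 control arrays. The lowest U-HO1 array, at 11.75, was far above the highest L-1236 array, at 10.07. The log2 difference was 2.21 (SE 0.17, 95% interval 1.84 to 2.58, adjusted p = 1.54e-06) on control arrays and 2.16 (SE 0.17, 95% interval 1.79 to 2.53, adjusted p = 1.83e-06) on knockdown arrays. By absolute size TNFAIP3 ranked 291 and 318 among the 32321 rows in these comparisons. MAP3K14 read 9.76, 9.10 and 9.15 on U-HO1 knockdown and 9.72, 9.58 and 9.29 on U-HO1 control arrays, against 8.28, 8.03 and 8.32 on L-1236 knockdown and 8.17, 8.17 and 8.01 on L-1236 control arrays. Again the lines did not overlap, and here the U-HO1 arrays were the more variable (SD over 6 arrays 0.29, against 0.13 in L-1236). The log2 difference was 1.41 (SE 0.17, adjusted p = 5.12e-05) on control and 1.13 (SE 0.17, adjusted p = 0.000297) on knockdown arrays, ranks 791 and 1276 by absolute size. With each compared array left out in turn the TNFAIP3 difference ran from 2.07 to 2.38 on control arrays and that of MAP3K14 from 1.32 to 1.53.

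**Figure D2:**
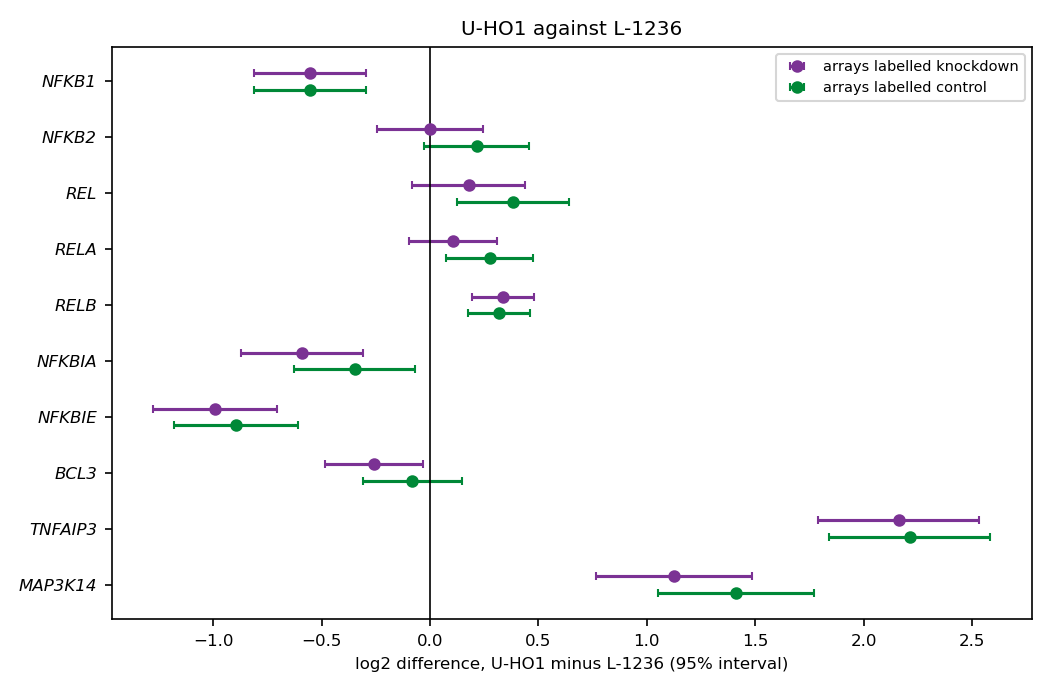
Log2 difference of each gene, U-HO1 minus L-1236 (horizontal axis, points with 95% intervals), on arrays labelled knockdown (upper point of each pair) and labelled control (lower point), n = 3 arrays a group. TNFAIP3 at 2.16 and 2.21 and MAP3K14 at 1.13 and 1.41 lie to the right of 0, and NFKBIE at -0.99 and -0.89 to the left.

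Taken over all 12 arrays, 5 of the 10 members had lines that did not overlap, where 23.3% of all rows did so. In NFKBIE, TNFAIP3, NFKB1, RELB and MAP3K14 the order of the 4 group means was set by the line, and the neighbours in that order, knockdown and control of the same line, did not differ beyond their spread.

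The comparison that the hairpin was made for asked which transcripts depend on GATA-3. GATA3 itself differed by -0.32 (SE 0.31, limma unadjusted p = 0.319) in U-HO1 and 0.035 (SE 0.31, limma unadjusted p = 0.912) in L-1236, knockdown minus control. As the labels did not separate GATA3 levels, dependence of the members on GATA-3 could not be tested by label. No member differed between arrays labelled knockdown and control, in U-HO1 or in L-1236 (limma, 0 of 10 at an adjusted p under 0.05 in each line and 0 of 10 at an unadjusted p under 0.05). Over all rows 0% passed in either line, whether by an adjusted p under 0.05 or by the cut the submitters chose (false discovery rate up to 25%, change of 1.5-fold or more), and 1.05% of rows in U-HO1 and 4.77% in L-1236 had an unadjusted p under 0.05. Without the array labelled L-1236 control 3, 22 rows met the submitters' cut in L-1236. In U-HO1 the 10 log2 differences, knockdown minus control, ran from -0.19 for MAP3K14 to 0.12 for NFKB1, with 4 above 0 and 6 below. The median was -0.01, beside -0.0016 over all rows. The MAP3K14 value ran from -0.41 to -0.07 with each U-HO1 array left out in turn and was -0.53 (adjusted p = 0.7496) without the arrays whose GATA3 goes against the label, and that of NFKB1 ran from 0.01 to 0.21 and was 0.26 (adjusted p = 0.9999). Leaving out arrays by their GATA3 level sets U-HO1 control arrays of higher GATA3 against knockdown arrays of lower GATA3. That run is therefore not independent of the split by GATA3 described below. The 95% intervals in U-HO1 reached from -0.56 to 0.37. In L-1236 the differences ran from -0.0096 for RELB to 0.18 for BCL3, with 9 above 0 and 1 below. Their median was 0.11, beside -0.0091 over all rows. These counts moved with the scaling: after quantile normalization 8 were above 0 and 2 below with a median of 0.01, and after centring all 10 were above 0 with a median of 0.18. The 95% intervals in L-1236 reached from -0.33 to 0.45.

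RELA was the only member whose knockdown and control arrays did not overlap within a line. That was in L-1236, where its difference was 0.17 (SE 0.09, unadjusted p = 0.0881, adjusted p = 0.925), and 10.7% of all rows were parted in this way. In U-HO1 no member was parted, and 3.79% of all rows were. TNFAIP3 differed between knockdown and control by -0.008 (SE 0.17) in U-HO1 and 0.04 (SE 0.17) in L-1236, and NFKBIE by -0.02 (SE 0.13) and 0.08 (SE 0.13) (limma, n = 3 each, adjusted p of at least 0.945). For the difference of the knockdown effects between the lines, U-HO1 minus L-1236, 0% of all rows and 0 of 10 members passed (limma), with 0 members and 2.46% of rows at an unadjusted p under 0.05. The term furthest from 0 was that of MAP3K14, at -0.29 (SE 0.23, adjusted p = 0.9997).

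**Figure D3:**
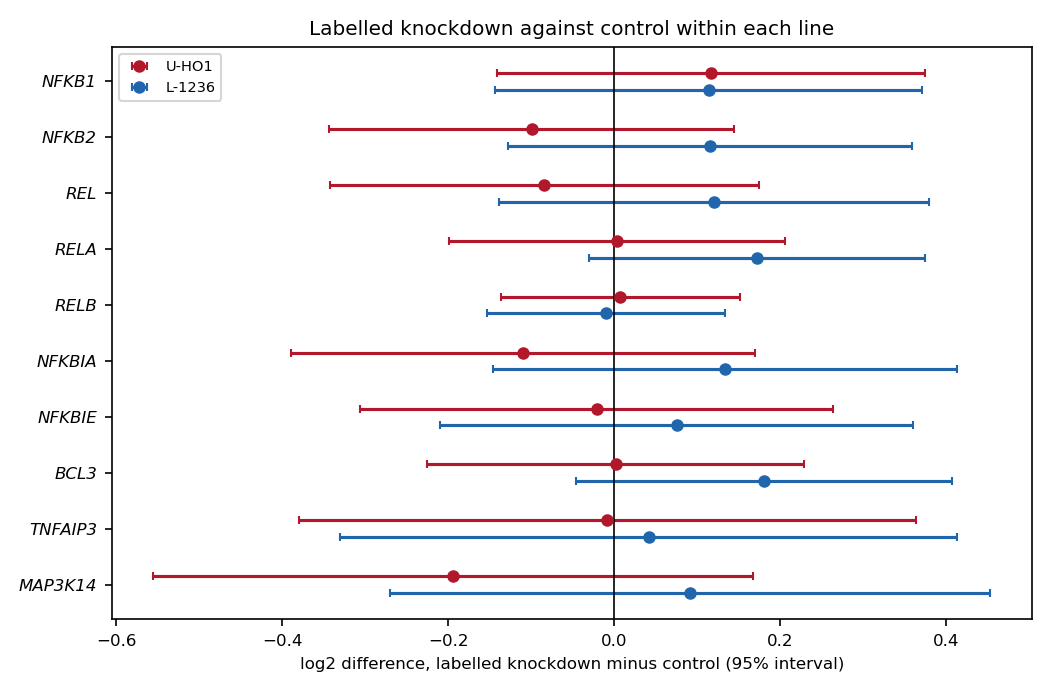
Log2 difference of each gene, labelled knockdown minus labelled control (horizontal axis, points with 95% intervals), in U-HO1 (upper point of each pair) and L-1236 (lower point), n = 3 arrays a group. Every interval includes 0, and the points lie between -0.19 and 0.18.

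Spread within a line was looked at next, since some members varied more between arrays than between labels. In L-1236 the mean of 14 measured genes of the type I interferon response, with IFIT1, MX1 and ISG15 among them, was 9.03, 9.91 and 8.28 on knockdown and 7.73, 7.46 and 10.07 on control arrays. In U-HO1 it was 7.95, 8.25 and 8.01 on knockdown and 8.13, 7.88 and 7.97 on control arrays. TNFAIP3 in L-1236 was highest, at 10.07, on the same arrays as that mean, knockdown 2 and control 3. NFKBIE was highest there too, at 9.08 and 9.05, and so was NFKB1, at 10.09 and 9.99. Over the 6 L-1236 arrays TNFAIP3 followed the interferon mean with Pearson r = 0.92 (exact permutation p = 0.0236) and Spearman rho = 0.94 (exact permutation p = 0.0167). For NFKBIE r was 0.88 (exact permutation p = 0.0333) and rho 0.71 (exact permutation p = 0.136). NFKB1 had r = 0.79 (exact permutation p = 0.0958) and rho = 0.83 (exact permutation p = 0.0583). NFKBIA had r = 0.72 (exact permutation p = 0.115) and rho = 0.60 (exact permutation p = 0.242). In U-HO1, where the interferon mean varied less, RELA had r = 0.95 (exact permutation p = 0.00417) and rho = 0.94 (exact permutation p = 0.0167).

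A total of 30 such relations were computed, the 10 members against the interferon mean in each line and against GATA3 in L-1236, and none passed after Benjamini-Hochberg adjustment (two-sided exact permutation over pairings, n = 6). With 720 pairings the smallest p possible was 0.00139, so a single relation could pass alone only at that floor by Pearson r. By Spearman rho it could not pass alone at all. That none passed therefore says little about these relations. The adjusted values of the Pearson p were 0.125 for RELA in U-HO1 and 0.333 for TNFAIP3 and NFKBIE in L-1236, and those of the Spearman p were 0.25, 0.25 and 0.454. Without the 2 arrays farthest from the median of the interferon mean, r was 0.79 for RELA, 0.64 for TNFAIP3 and 0.48 for NFKBIE over 4 arrays. In L-1236 it was then 0.27 for NFKB1 and 0.79 for NFKBIA. These relations were chosen after the values were seen. Against GATA3 in L-1236 the steepest was that of NFKBIE, with r = -0.86 (exact permutation p = 0.0528, adjusted p = 0.396) and rho = -0.83 (exact permutation p = 0.0583, adjusted p = 0.437), and r was -0.97 without the 2 arrays farthest from the median. The part of the interferon response in the levels of TNFAIP3, NFKBIE, NFKB1 and NFKBIA was not tested.

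**Figure D4:**
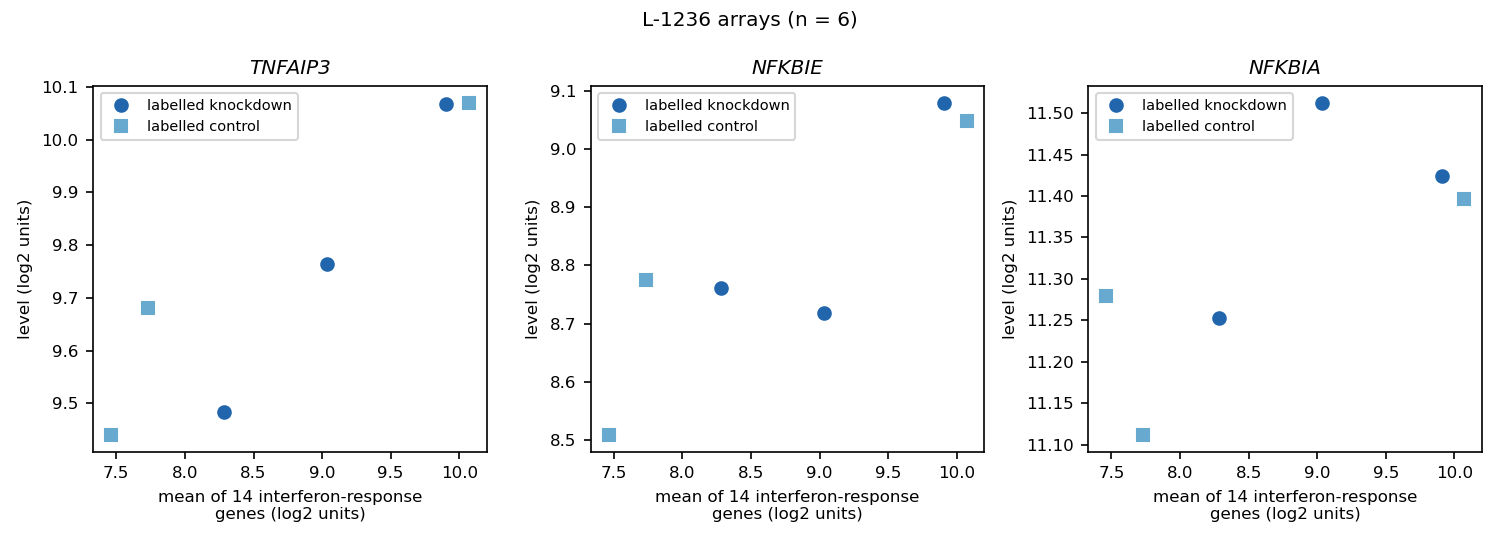
Level of TNFAIP3, NFKBIE and NFKBIA (vertical axes, log2 units, own range in each panel) against the mean of 14 interferon-response genes (horizontal axis, log2 units) on the 6 L-1236 arrays, circles labelled knockdown and squares labelled control. TNFAIP3 and NFKBIE are highest on the 2 arrays with the highest interferon mean, at 9.91 and 10.07.

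MAP3K14 varied most within U-HO1. Its readings of 9.76, 9.72 and 9.58 stood on the arrays labelled knockdown 1, control 1 and control 2, where GATA3 read 11.07, 11.24 and 10.90. On control 3, knockdown 3 and knockdown 2 MAP3K14 read 9.29, 9.15 and 9.10 and GATA3 10.24, 10.22 and 10.12. The arrays with higher GATA3 thus had higher MAP3K14 whatever their label. NFKB1 was parted in the opposite direction, at 9.27, 9.28 and 9.05 on the arrays with higher GATA3 and 9.44, 9.45 and 9.40 on the others. Both patterns were noticed after the values were seen, and no other member was parted by this split. The share of all rows parted by it was not computed, so how common such parting is remains unknown. As GATA3 fell into separate clusters of 3 arrays each, a pooled correlation is not given and the relation could not be tested within them. In L-1236, where GATA3 was spread more evenly, MAP3K14 against GATA3 had r = 0.66 (exact permutation p = 0.158, adjusted p = 0.431) and rho = 0.66 (exact permutation p = 0.175, adjusted p = 0.525) over 6 arrays, and r was 0.84 without the 2 arrays farthest from the median.

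**Figure D5:**
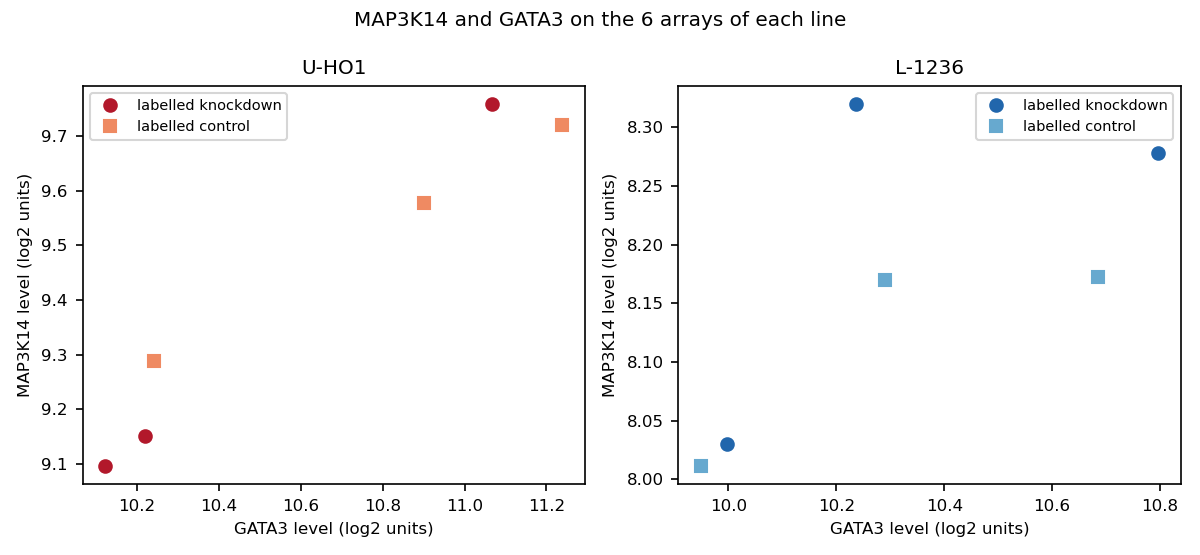
MAP3K14 level (vertical axis, log2 units) against GATA3 level (horizontal axis, log2 units) on the 6 arrays of U-HO1 (left) and of L-1236 (right), circles labelled knockdown and squares labelled control, with its own axis range in each panel. In U-HO1 the arrays at GATA3 of 10.90 or more have MAP3K14 of 9.58 or more, and the others 9.29 or less.

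Members were also related to each other within a line. NFKBIE and TNFAIP3 had r = 0.91 and RELA and BCL3 r = 0.96 over the 6 L-1236 arrays. In U-HO1 NFKBIA had r = 0.89 with NFKB2 and 0.88 with TNFAIP3. These are the pairs with the highest r in each line, among all pairs of members, and are given as a description. RELA and BCL3 were both lowest on L-1236 control 1. Outside the set, the gene whose levels over the 12 arrays were most like those of a member, after the mean of each line was subtracted, was found among 18394 genes, and such a search returns high values by its size alone. It was MICAL3 for TNFAIP3 (r = 0.97), ARL6 for MAP3K14 (r = 0.98), IFI35 for NFKBIE (r = 0.94) and IGFLR1 for NFKBIA (r = 0.89). For the subunits it was ST20 for NFKB1 (r = 0.96), STAMBP for NFKB2 (r = 0.95), SMCHD1 for REL (r = 0.96), GRINA for RELA (r = 0.95) and ZNF365 for RELB (r = 0.89), and for BCL3 it was GLIPR1 (r = 0.95).

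The rest of the pathway was described through 5 further lists with 95 genes, 87 of which had a row with a single symbol. Among other IkB proteins and IkB kinases, 3 of 8 were higher in U-HO1 on control arrays and 0 lower, with a median log2 difference of 0.45, and 2 of 8 were higher and 0 lower on knockdown arrays. Over all rows 13.3% were higher and 12.5% lower on control arrays, and 12.2% and 12.5% on knockdown arrays, while over the 5 lists together 20.7% were higher and 35.6% lower on control arrays, and 20.7% and 36.8% on knockdown arrays. The shares over all rows count dim rows and rows without a symbol, so the 2 kinds of share are not alike. TBK1 and IKBKE, the IkB-kinase-related enzymes, were higher in U-HO1 by 0.84 (SE 0.16, adjusted p = 0.00192) and 0.59 (SE 0.10, adjusted p = 0.00110), and CHUK, the kinase subunit that the non-canonical pathway needs, by 0.53 (SE 0.13, adjusted p = 0.00970). On knockdown arrays, CHUK differed by 0.38 (adjusted p = 0.0522). NFKBIZ, an atypical IkB protein, differed by 0.56 (adjusted p = 0.0551) on control arrays. Of 14 other negative regulators, 1 was higher and 7 lower in U-HO1 on control arrays (13.3% and 12.5% of all rows), with a median of -0.39, and the counts on knockdown arrays were the same. TNIP2, which binds the TNFAIP3 product, was lower by -1.13 (SE 0.14, adjusted p = 8.715e-05). The ribonuclease gene ZC3H12A differed by -0.88 (SE 0.09, adjusted p = 1.43e-05), and TAX1BP1, an adaptor of the TNFAIP3 product, by -0.58 (SE 0.10, adjusted p = 0.00100). COMMD1 had -0.88 (SE 0.11, adjusted p = 6.49e-05) on knockdown arrays.

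In the non-canonical arm 1 of 11 measured genes was higher and 5 lower in U-HO1, on control arrays (13.3% and 12.5% of all rows) and likewise on knockdown arrays (12.2% and 12.5%), with medians of -0.07 and -0.06. CD40, a receptor that feeds this arm, averaged 7.70 on U-HO1 control arrays and 9.66 on those of L-1236, a log2 difference of -1.96 (SE 0.13, adjusted p = 5.205e-07). BIRC2, whose product takes part in NIK degradation, was lower by -1.04 (SE 0.13, adjusted p = 0.000100), TRAF5 by -1.43 (SE 0.09, adjusted p = 2.98e-07) and the receptor TNFRSF11A by -0.74 (SE 0.09, adjusted p = 8.70e-05). In the canonical arm 4 of 14 measured genes were higher and 5 lower on control arrays, with a median of -0.21, and 4 were higher and 6 lower on knockdown arrays. The paracaspase gene MALT1 was lower in U-HO1 by -1.05 (SE 0.10, adjusted p = 1.35e-05) and the receptor gene TNFRSF1A by -0.54 (SE 0.09, adjusted p = 0.00101). Of the linear ubiquitin ligase subunits, SHARPIN was higher by 0.55 (SE 0.08, adjusted p = 0.000258) and RBCK1 lower by -0.61 (SE 0.11, adjusted p = 0.000998).

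Genes known as NF-kB targets moved in both directions between the lines. Of 40 measured, 9 were higher and 14 lower in U-HO1 on control arrays (13.3% and 12.5% of all rows), with a median of -0.09. On knockdown arrays 10 were higher and 14 lower (12.2% and 12.5% of all rows), with a median of -0.05. TRAF1 averaged 10.16 in U-HO1 and 7.23 in L-1236, a log2 difference of 2.93 (SE 0.14, adjusted p = 2.40e-08), and the activation marker CD83 was higher by 1.61 (SE 0.13, adjusted p = 2.28e-06). The cytokine LTA averaged 9.71 in U-HO1 and 12.21 in L-1236, a log2 difference of -2.49 (SE 0.12, adjusted p = 2.19e-08), and IL6 was lower by -1.76 (SE 0.10, adjusted p = 1.65e-07). Each of these 4 passed in the same direction on knockdown arrays. Between knockdown and control, 0 genes of the 5 lists passed in either line (limma), where at an unadjusted p under 0.05 there were 0 of 87 in U-HO1 (1.05% of all rows) and 5 of 87 in L-1236, a share of 5.75% near the 4.77% of all rows.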

How the data were processed

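Values came from the deposited table of 32321 rows for 12 Affymetrix whole-transcript arrays. The authors made these values, taken here as log2 values, with R 2.8.1 and Bioconductor, per the submitters' processing notes and the design description. How background was corrected, how arrays were normalized and which genome build applied is stated in no source used here. The log base was taken as 2 from the range of 3.86 to 13.99, and array medians lay between 6.96 and 7.09. Gene names came from the platform annotation, in which 19158 rows have 1 symbol, 1388 several and 11775 none. A gene was represented by its brightest row with 1 symbol.

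Linear models were fitted to all rows and the 4 groups with limma 3.58.1 (R 4.3.3), with Benjamini-Hochberg adjustment over all rows. The code was tested on simulated data. All 10 members were named, with up to 4 genes of each further pathway list that had the smallest p between the lines on control arrays, and the most similar gene of each member. Members and lists were chosen with earlier results of these data known.

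Alternatives were a replicate block, quantile normalization, median centring, leaving out dim rows, fitting only the arrays compared, each array left out, both labels together, and, added after the data were seen, leaving out the arrays labelled knockdown 1 and control 3 of each line. Deviations of same-numbered arrays correlated at -0.40 to 0.32 between knockdown and control within a line and at -0.17 to 0.26 between the control arrays of the lines, so the numbers were not taken as pairs there. Between the knockdown arrays of the lines they correlated at 0.14 to 0.21, each over the limit of 0.1 used for pairing.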

Additional observations from a re-analysis of the deposited data

Results flagged for a closer look

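The knockdown effect on NFKB2 had opposite signs in the lines. In U-HO1 knockdown minus control was -0.10 and in L-1236 it was 0.12 on the log2 scale, a difference of -0.21 between the effects. The term for that difference did not pass (limma, n = 3 a group, adjusted p = 0.9997). Without the array labelled U-HO1 control 1, which held the highest NFKB2 level of 10.47, the U-HO1 effect was 0.05.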

How the results depend on the processing

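The differences of TNFAIP3, MAP3K14, NFKBIE and NFKB1 between the lines kept their direction and their call under every alternative run, on control and on knockdown arrays. Without the arrays whose GATA3 goes against the label, 4 members passed on control arrays in place of 7. Over all 32321 rows 5873 then passed in place of 8343. With the replicate block 6 members passed on control arrays, where RELA had an adjusted p of 0.0703, and 6 on knockdown arrays, and the block changed no other call of a member. Rows passing with the block numbered 8290 on control and 7957 on knockdown arrays, beside 8343 and 7984 without it. Fitting only the arrays compared left 5 members and 7003 rows on control arrays, with adjusted p of 0.0704 for REL and 0.122 for RELA. Quantile normalization gave 6 members on control arrays, without REL (0.0557) and RELA (0.1) and with NFKBIA (0.0170), and 7 on knockdown arrays, with BCL3 added. Rows passing then numbered 8746 on control and 8387 on knockdown arrays. Both labels together gave 8 members and 11340 rows. Rows meeting the submitters' criteria in L-1236 numbered 0 to 22 with each array left out in turn. No sign change concerned a difference that passed. Knockdown minus control in L-1236 became -0.061 for TNFAIP3 after quantile normalization and 0.0533 for RELB after centring. In U-HO1 it became 0.0099 for TNFAIP3 after quantile normalization, -0.0019 for RELA and -0.0032 for BCL3 after centring, and 0.0338 for NFKBIE without the arrays whose GATA3 goes against the label. With each array left out in turn, the L-1236 differences ran from -0.0338 to 0.0181 for RELB, -0.0587 to 0.2109 for NFKBIE and -0.1059 to 0.212 for TNFAIP3. The U-HO1 differences ran from -0.1775 to 0.0492 for NFKB2, -0.2052 to 0.0006 for NFKBIA, -0.1048 to 0.072 for TNFAIP3, -0.0794 to 0.0217 for NFKBIE, -0.0538 to 0.0559 for RELA, -0.0341 to 0.038 for RELB and -0.0362 to 0.0366 for BCL3. Between the lines BCL3 ran from -0.2059 to 0.0042 on control arrays and NFKB2 from -0.0496 to 0.051 on knockdown arrays. The cause was not tested. Each member had 1 row, so that taking the dimmest row changed nothing and was not run. No background signal was used, so how far dim genes stand above it is unknown.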
